A study of Homo sapiens with 24 samples.

Results

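The genes described here are the human genes with a ZNF number for a name (ZNF followed by digits and at most 1 letter), which the gene nomenclature uses for zinc finger proteins. The table of gene counts held 558 such genes. A gene was kept when its mean level over the 24 libraries was at least 10 CPM (the gene's count relative to the library total, with every library scaled to the same total), which left 166 of 558. They were chosen by this mean level, measured in the same libraries, so the levels below are a description. The mean runs over both genotypes, and a gene can reach the limit through one of them: 3 genes had a WT mean and 4 a KO mean under 10 CPM. ZNF503 stayed under 10 CPM in every KO library and ZNF32 in every WT library, so these genes had to differ between the genotypes to be included. ZNF488 had a WT mean under 10 CPM and stayed under 10 CPM in every library with TNFα. Its inclusion thus rests on its KO libraries and on those without TNFα. The genes just outside the limit were ZNF26 (9.81 CPM), ZNF16 (9.94 CPM) and ZNF516 (9.996 CPM), and those just inside were ZNF784 (10.05 CPM), ZNF600 (10.15 CPM) and ZNF503 (10.18 CPM). ZNF395 was named as an exception to be left out, and at 8.96 CPM it lay below the limit in any case. All 166 passed the filter on low counts, 139 of them with at least 10 CPM in every library, and of the 392 genes under the limit 216 passed it.

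Most ZNF genes encode proteins built from a row of C2H2 zinc fingers, short folds that each hold a zinc ion and read a few bases of DNA. The largest subfamily carries a KRAB domain in front of the fingers. It recruits the co-repressor TRIM28, which brings histone methylation by SETDB1, HP1 proteins and histone deacetylation to the bound site, often a transposable element. KRAB zinc finger genes arose by repeated tandem duplication, and in the human genome many of them sit in clusters on chromosome 19.

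RNA was measured in HT-29 cells, a line of epithelial cells from a human colon cancer, either wild type (WT) or with the gene GPRC5A, an orphan G protein-coupled receptor, knocked out (KO). Cells of each genotype spent 8 h with one of 4 additions, namely 0.1% DMSO, 50 µM 7-fluorotryptamine (7FTA), the inflammatory cytokine TNFα at 10 ng/mL, or 7FTA and TNFα combined. This gives 8 groups of 3 libraries of poly(A)-selected RNA. DMSO is stated only for its own groups, and the labels say neither how many knockout clones were used nor whether the 3 libraries of a group came from separate cultures. The p-values therefore measure the spread between these libraries, which may be technical, and clone and genotype cannot be told apart. Total counts ran from 16782857 to 27247407 per library. GPRC5A itself had group means of 207 to 245 CPM in WT cells and 66.9 to 77.8 CPM in KO cells, and the mean log2 fold change over the 4 treatments was -1.63 (SE 0.02). Of 10 markers of colon epithelium 9 had a mean of at least 1 CPM, with a summed level of 14821 to 19805 CPM. Most of this sum came from the keratins KRT8 (7505 to 10693 CPM) and KRT18 (4394 to 6702 CPM). Low members of this list were CDX1 (at most 1.01 CPM), CDX2 (0.62 to 3.43 CPM) and CDH17 (0.59 to 3.67 CPM). The fibroblast markers summed to at most 2.03 CPM and the endothelial ones to at most 1.64 CPM. The immune list summed to 1471 to 1717 CPM, of which LYZ made up 1465 to 1706 CPM. Its members PTPRC and CD3E stayed at or below 0.17 CPM, while CD14 ran over 1.94 to 8.49 CPM and ITGAM over 0.05 to 10.3 CPM.

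Translation of the longest coding sequence of each gene gave a protein for 163 of the 166 genes, and the other 3 (ZNF252P, ZNF271P and ZNF702P) are pseudogenes. A KRAB domain was searched in every translated transcript, and 79 genes had it in any of them and 84 in none. Fingers were counted in the longest protein alone, which need not be the one with KRAB. Genes with KRAB had a median of 12 C2H2 fingers (at most 26), and those without it a median of 5 (at most 31, in ZNF646). Among all 510 ZNF genes with a protein, 344 had KRAB, so 23.0% of the KRAB genes and 50.6% of the others reached the limit of 10 CPM. Chromosome 19 held 54 of the 166 genes, 37 of them with KRAB, and the rest were spread over 20 other chromosomes.

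Levels of the 166 genes had a median of 23.7 CPM. The highest were those of ZNF664 (326 CPM), ZNF207 (281 CPM, a spindle and kinetochore protein that binds BUB3) and ZNF146 (259 CPM, a protein made almost entirely of fingers). For a rough comparison between genes, levels were divided by exon length, taken over all annotated exons of a gene together. This length can exceed that of the transcripts expressed, which lowers the value, so the order is approximate. It was led by ZNF593 at 70.9 CPM per kb and ZNF146 at 62.5 CPM per kb, followed by ZNF664 at 51.4, ZNF787 at 32.1 and ZNF622 at 30.6 CPM per kb. ZNF593 and ZNF622 act in maturation of the large ribosomal subunit. The lowest were ZNF445 at 0.54, ZNF268 at 0.75 and ZNF280D at 1.05 CPM per kb. The level of ZNF593 is uncertain, since 74.7% of the 100-base windows of its transcripts lie in an overlapping gene, and 27 of the 166 genes shared more than 10% of their windows in that way. Only 2 genes shared more than 10% with a transcript elsewhere in the genome, one of them ZNF587 (11.4%, with ZNF417).

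Promoters were compared in 300-base windows, from 250 bases before to 50 bases after the gene's start, which RefSeq (GRCh38.p14) gave for 141 of the 166 genes. The core motif of ETS factors, CCGGAA on either strand, was in 54.6% of them (77 of 141), against 17.6% of all 27305 promoters of the table and 29.6% of the promoters of the other tested genes (2880 of 9746). The share was 66.7% for genes with KRAB (44 of 66), 44.0% for those without (33 of 75), and 50.8% for the tested ZNF genes under 10 CPM (92 of 181). Other tested genes of chromosome 19 had it in 28.0% (166 of 592). A match to the GC box GGGCGG was in 62.4% of the ZNF promoters, 70.2% of those of other tested genes and 44.6% of all promoters. A match to the AP-1 motif TGANTCA was in 8.51%, 4.63% and 7.76% in the same order, and in 3.31% for the tested ZNF genes under 10 CPM. A match is a string of letters and does not show that a factor binds.

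**Figure D1:**
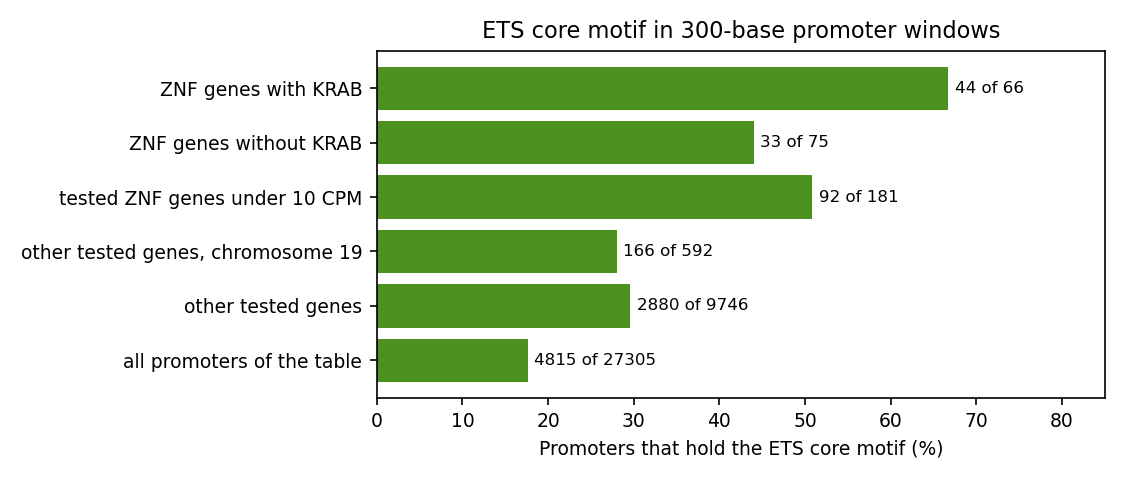
Share of 300-base promoter windows that hold the ETS core motif on either strand, in percent (bars), with the number of genes beside each bar. ZNF genes at or over 10 CPM, with KRAB (66.7%) and without (44.0%), stand above the other tested genes (29.6%).

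The promoters shown here belong to 4 neighbouring KRAB genes on chromosome 7 that were called lower with TNFα in WT cells, and to ZNF641, the gene with the largest increase that was called in all 4 TNFα comparisons described below. Capitals mark each match to the ETS core. The windows are, 5′ to 3′ along the gene, chr7:64563022-64563321 (minus strand) for ZNF680, chr7:64665883-64666182 (plus) for ZNF107, chr7:64794178-64794477 (plus) for ZNF138, chr7:65373605-65373904 (plus) for ZNF92 and chr12:48350870-48351169 (minus) for ZNF641.
ZNF680: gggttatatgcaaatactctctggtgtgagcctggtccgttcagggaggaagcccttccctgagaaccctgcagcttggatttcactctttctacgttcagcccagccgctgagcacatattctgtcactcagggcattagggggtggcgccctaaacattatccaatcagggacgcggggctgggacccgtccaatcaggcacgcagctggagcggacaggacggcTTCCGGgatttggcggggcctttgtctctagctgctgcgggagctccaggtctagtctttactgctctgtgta
ZNF107: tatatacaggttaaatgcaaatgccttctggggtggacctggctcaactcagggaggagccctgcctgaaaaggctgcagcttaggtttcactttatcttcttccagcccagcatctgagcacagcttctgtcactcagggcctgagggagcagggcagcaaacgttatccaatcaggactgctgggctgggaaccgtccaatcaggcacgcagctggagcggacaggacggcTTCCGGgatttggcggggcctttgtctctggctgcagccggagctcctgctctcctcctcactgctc
ZNF138: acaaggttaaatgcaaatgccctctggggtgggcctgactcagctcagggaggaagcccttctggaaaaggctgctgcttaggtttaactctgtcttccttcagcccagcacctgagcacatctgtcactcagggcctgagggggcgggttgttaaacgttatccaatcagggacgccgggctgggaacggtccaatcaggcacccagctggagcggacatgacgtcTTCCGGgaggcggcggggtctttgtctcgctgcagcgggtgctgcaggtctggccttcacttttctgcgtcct
ZNF92: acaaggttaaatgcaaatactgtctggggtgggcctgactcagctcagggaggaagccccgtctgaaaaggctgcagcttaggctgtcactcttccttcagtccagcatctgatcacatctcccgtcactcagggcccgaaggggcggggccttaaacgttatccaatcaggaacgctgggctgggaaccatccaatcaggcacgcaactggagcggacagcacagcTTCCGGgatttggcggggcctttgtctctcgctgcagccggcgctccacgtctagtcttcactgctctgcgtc
ZNF641: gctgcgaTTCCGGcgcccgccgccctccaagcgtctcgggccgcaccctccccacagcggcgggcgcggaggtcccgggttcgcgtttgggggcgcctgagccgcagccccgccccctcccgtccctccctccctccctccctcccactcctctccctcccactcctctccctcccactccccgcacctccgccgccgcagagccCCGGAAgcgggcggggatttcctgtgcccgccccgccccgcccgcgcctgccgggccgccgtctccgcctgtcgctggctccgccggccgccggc
The first 4 hold 1 match each, all on the same strand relative to the gene, which begins 23 bases before the start in ZNF680, ZNF138 and ZNF92 and 17 bases before it in ZNF107. ZNF641 holds 2 matches and a window richer in CpG, with 40 CpG sites against 8 to 15 in the chromosome 7 genes. Whether the ETS core bears on the change with TNFα was not tested.

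The comparison of KO with WT cells asks which ZNF genes differ with the loss of GPRC5A, within each treatment and as the mean of the 4 treatments. ZNF503 had the largest difference. It and ZNF703 are related proteins of the NET family, transcriptional repressors without a KRAB domain. In GENCODE 29 on GRCh38 ZNF503 lies at chr10:75397830-75401906 (minus strand, ENSG00000165655) and ZNF703 at chr8:37695751-37700021 (plus strand, ENSG00000183779). ZNF503 was at 12.3, 12.9 and 14.9 CPM in the 3 WT libraries with DMSO and 4.36, 4.37 and 3.70 CPM in the 3 KO libraries. With 7FTA it was at 14.6, 14.4 and 14.0 CPM in WT and 4.11, 4.25 and 3.81 CPM in KO cells, and with TNFα at 18.0, 16.8 and 16.0 and 4.73, 4.57 and 5.68 CPM. With both agents the values were 18.9, 18.3 and 19.3 CPM in WT and 6.85, 6.22 and 5.63 CPM in KO cells. Every KO library lay below every WT library and below 10 CPM, so ZNF503 was included through its WT libraries. Its rank and p-value are therefore a description, since the choice of genes used the same values. The log2 fold change, KO against WT as the mean of the 4 treatments, was -1.72 (SE 0.05), a 3.29-fold lower level (adjusted p = 2.02e-32, edgeR quasi-likelihood test with Benjamini-Hochberg adjustment, as for all adjusted p-values here unless another tool is named). Fewer cells that express a gene and less of its RNA per cell cannot be told apart in such bulk libraries. ZNF703 ran over 74.6 to 98.7 CPM (median 87.3) in the 12 WT libraries and 47.1 to 62.4 CPM (median 53.2) in the 12 KO libraries, with no overlap, and was lower in KO cells by 1.6-fold (log2 -0.68, SE 0.03, adjusted p = 3.53e-28).

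ZNF32 and ZNF488, both on chromosome 10 like ZNF503, had the largest increases in KO cells. They lie at chr10:43643859-43648856 (minus strand, ENSG00000169740) (ZNF32) and chr10:47365496-47384273 (minus strand, ENSG00000265763) (ZNF488). Of the transcript windows of ZNF32, 24.8% lie in an overlapping gene. ZNF32 was at 5.76 to 8.57 CPM (median 7.35) in the 12 WT libraries and 12.3 to 15.4 CPM (median 13.2) in the 12 KO libraries. All its WT libraries lay under 10 CPM, so it was included through its KO libraries. As for ZNF503, the rank and p-value of ZNF32 are a description. Its level in KO cells was 1.88-fold higher (log2 0.91, SE 0.05, adjusted p = 4.02e-21). ZNF488, a repressor known from oligodendrocyte differentiation, was at 10.5, 11.6 and 12.0 CPM in WT and 14.8, 17.5 and 17.7 CPM in KO cells with DMSO, and at 3.94, 4.45 and 5.46 and 8.64, 9.25 and 8.31 CPM with TNFα. The KO libraries were the higher ones in every treatment, by 1.78-fold in the mean (log2 0.83, SE 0.05, adjusted p = 3.66e-19). The WT mean of ZNF488 was under 10 CPM, so its rank and p-value here are a description too. The other 7 ZNF genes of chromosome 10 went both ways, with 3 higher, 2 lower and 2 not called. Of all tested genes 36.3% were higher and 34.7% lower in the mean.

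**Figure D2:**
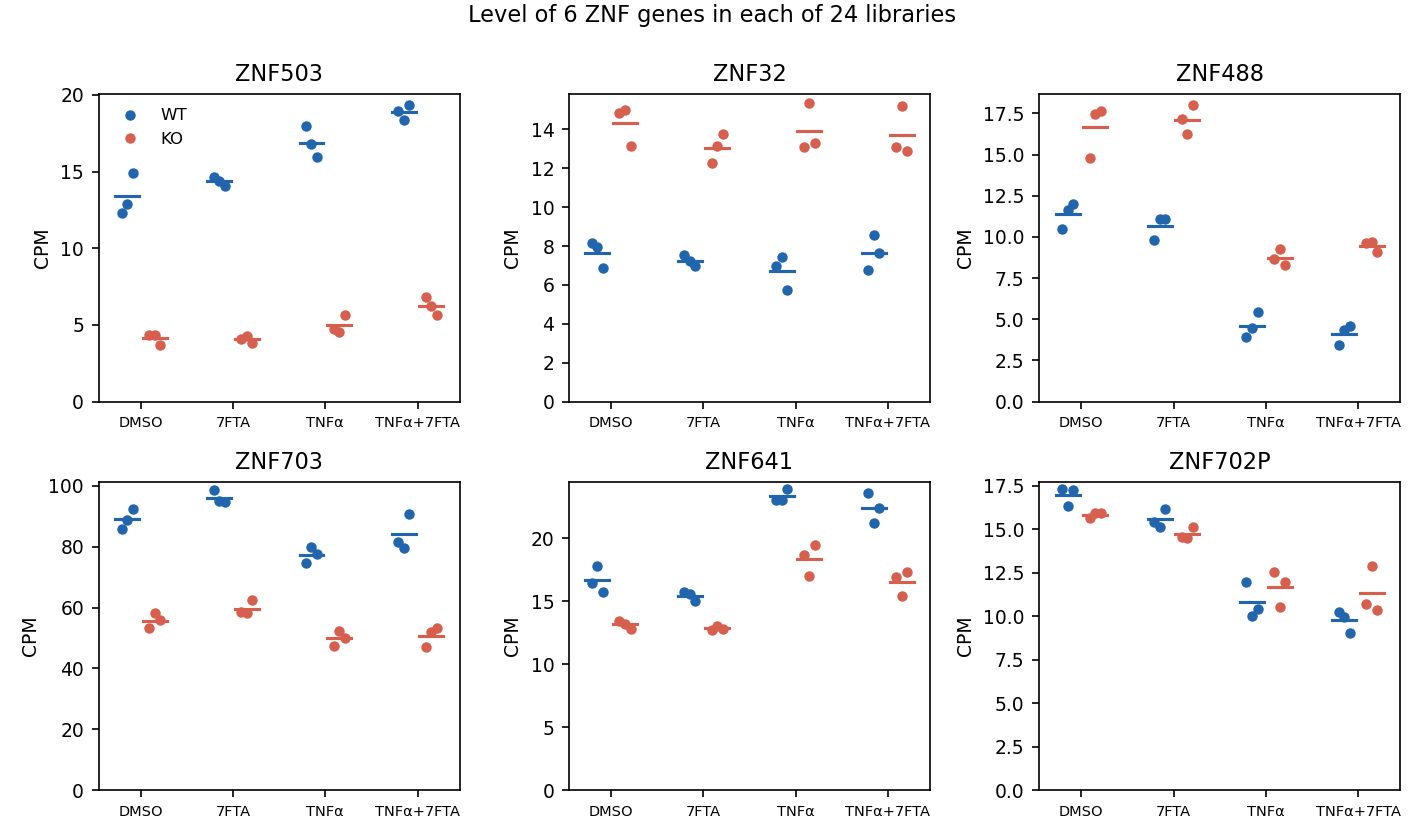
Level in CPM (linear axis from 0) of 6 ZNF genes in each library, by treatment, with WT in blue and KO in red. Points are the 3 libraries of a group and bars their mean. ZNF503 and ZNF703 are lower and ZNF32 and ZNF488 higher in all KO libraries within each treatment, ZNF488 and ZNF702P are lower and ZNF641 higher with TNFα.

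Calls were made at an adjusted p under 0.05, with the adjustment over 14059 genes. With DMSO, 22 of the 166 ZNF genes lay higher and 62 lower in KO than in WT cells, where 24% of all tested genes were called higher and 24.1% lower. With 7FTA the counts were 18 higher and 60 lower (24.6% and 24.9% of all tested genes), with TNFα 16 and 61 (25.5% and 25.1%), and with both 20 and 65 (25.8% and 26.1%). In the mean of the 4 treatments 35 were higher and 88 lower (36.3% and 34.7%), with a median log2 fold change of -0.09 against 0.01 over all tested genes. So the ZNF genes were called lower more often, and higher less often, than the tested genes as a whole, with small median differences. The tested genes include genes under 10 CPM, so the shares are not matched on level. The counts include the 3 genes with a WT mean and the 4 with a KO mean under 10 CPM, whose inclusion used the same values. The tested ZNF genes under 10 CPM, described at the end, lay near the shares of all tested genes in the mean. These shares depend on the scaling of the libraries. With library totals in place of TMM factors, the counts in the mean were 62 higher and 62 lower, and the median was -0.002 for the ZNF genes and 0.09 for all tested genes. Of all tested genes 48.7% were then higher and 24.5% lower, so the ZNF genes were again called lower more often and higher less often. With library totals they were 35 and 35 with DMSO (33.1% and 16.9% of all tested genes), 35 and 36 with 7FTA (33.8% and 17.2%), 41 and 42 with TNFα (35.6% and 16.9%), and 43 and 40 with both agents (36.5% and 17.1%). The gap between the ZNF genes and all tested genes was about 0.1 on the log2 scale under both scalings.

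The 4 comparisons of KO with WT share no library. In all 4 of them 40 ZNF genes were called lower and 8 higher, against 17% and 15.9% of all tested genes, 0 were called in opposite directions, and 48 were called in none. With library totals alone 20 were lower and 23 higher in all 4, against 10.8% and 23.4% of all tested genes. The 8 higher genes were ZNF32, ZNF488, ZNF277, ZNF532, ZNF74, ZNF107, ZNF680 and ZNF33B, with mean log2 fold changes down to 0.27. Those lower in all 4 were led by ZNF503, ZNF703, the KRAB gene ZNF324 (log2 -0.67, SE 0.04), ZNF574 (log2 -0.60, SE 0.03) and ZNF581 (log2 -0.56, SE 0.04). For ZNF503, ZNF32 and ZNF488 these calls are a description, as stated above. ZNF473, whose protein works with the U7 snRNP in 3′ end processing of histone transcripts, was at 69.6 to 80.8 CPM (median 76.4) in WT and 45.9 to 62.1 CPM (median 54.2) in KO cells. Its libraries did not overlap (log2 -0.51, SE 0.02, adjusted p = 6.23e-24). ZNF326, a subunit of the DBIRD complex that couples elongation with splicing, had a log2 fold change of -0.46 (SE 0.03). Others lower in the mean were ZNF584 at -0.55, ZNF787 at -0.45, ZNF628 at -0.44 and ZNF696 at -0.43 on the log2 scale, and higher were ZNF277 at 0.50, ZNF532 at 0.46, ZNF74 at 0.39 and the pseudogene ZNF271P at 0.37.

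Most differences were small. Only ZNF503, ZNF703, ZNF324, ZNF574, ZNF32 and ZNF488 passed a fold of 1.5 in the mean of the 4 treatments. ZNF664, the gene with the highest mean level, was at 307 to 348 CPM (median 324) in WT and 314 to 348 CPM (median 322) in KO cells, so the ranges overlap. ZNF146 was at 277 to 313 CPM (median 291) in WT and 219 to 237 CPM (median 228) in KO cells, a 1.27-fold lower level with no overlap.

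In the mean of the 4 treatments 16 of 79 KRAB genes were called higher and 45 lower, with a median of -0.10. Of 84 without KRAB, 18 were called higher and 43 lower, with a median of -0.08, beside 36.3% and 34.7% of all tested genes. With library totals the medians were -0.01 and 0.008. No test of the difference between the classes was run.

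The median differed more between chromosomes. Of the 54 genes on chromosome 19, 39 were called lower in KO cells and 6 higher, with a median log2 fold change of -0.21. The other 780 tested genes of chromosome 19 had 380 lower and 206 higher, with a median of -0.11 (318 and 272 with library totals), and the 112 ZNF genes on other chromosomes had 49 lower and 29 higher, with a median of -0.04. With library totals the count on chromosome 19 was 33 lower and 11 higher, with a median of -0.13, and the median of the ZNF genes elsewhere turned to 0.05. On chromosome 8, 5 of 7 ZNF genes were lower and 0 higher, beside 284 lower and 84 higher of its 456 other tested genes, whose median was -0.23. On chromosome 7, 10 of 19 were lower and 4 higher, where the other 682 tested genes had 189 lower and 284 higher. With library totals the chromosome 7 count turned to 5 lower and 7 higher. On chromosomes 8 and 19 the other genes were also more often lower than higher, and on chromosome 7 they were not. What part the chromosome has in these counts was not tested.

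**Figure D3:**
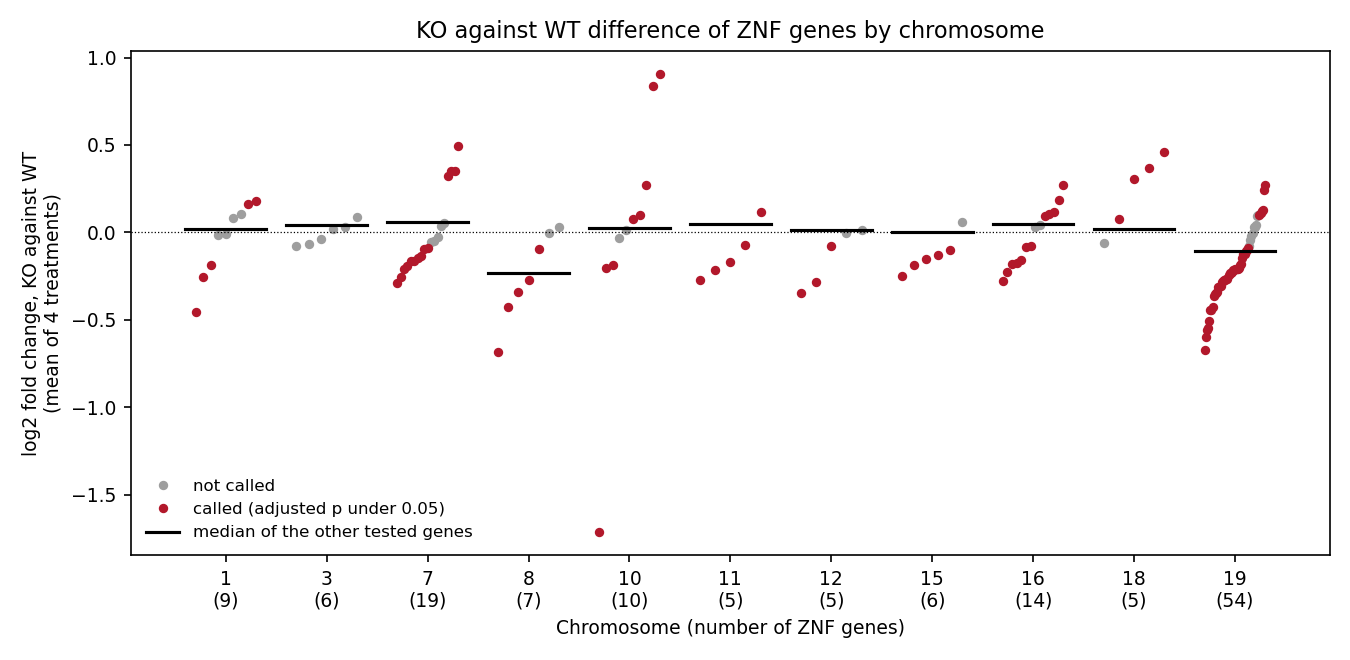
log2 fold change, KO against WT as the mean of 4 treatments, of each ZNF gene (points) on the chromosomes with at least 5 of them, with the median of the other tested genes of that chromosome as a black line. Red points were called. Most of the 54 points of chromosome 19 lie below its line at -0.11, and ZNF503, at -1.72 on chromosome 10, is the lowest point.

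Clusters were taken as runs of at least 5 ZNF genes whose starts lie at most 500 kb apart. There were 21, with 10 on chromosome 19, and they held 81 of the 166 genes. The clusters described below were chosen from them after their values were seen. Beside their counts, 34.7% of all tested genes were lower and 36.3% higher in the mean of the 4 treatments. In the last cluster of the long arm of chromosome 19 (chr19:57191500-58481230, GRCh38), 10 of 10 ZNF genes were called lower in KO cells in the mean of the 4 treatments, with a median log2 fold change of -0.27. They are ZNF551, ZNF776, ZNF586, ZNF552, ZNF587B, ZNF587, ZNF544, ZNF584, ZNF324B and ZNF324. ZNF587 is a KRAB protein known to bind endogenous retroviruses. Its level was 34.2 to 40.0 CPM (median 35.8) in WT and 25 to 29.4 CPM (median 27) in KO cells (log2 -0.43, SE 0.03). The 17 other tested genes inside this cluster went both ways, 5 higher and 5 lower, with a median of 0.11. Among its 23 ZNF genes under 10 CPM 11 were lower and 4 higher.

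In the cluster before it (chr19:55476332-56671783) 8 of 8 ZNF genes were lower, with a median of -0.26. This run holds ZNF581, ZNF628 and ZNF787. Its 7 other tested genes had a median of -0.43, with 6 lower and 0 higher, so there the neighbours were lower as well. In the cluster at chr19:51571298-53580269, 9 of 13 were lower and 1 higher, with a median of -0.18, and 4 of its 7 neighbours were lower. The pattern did not hold along the whole chromosome. In the cluster at chr19:8509678-9793180 2 of 6 were higher and 2 lower, and in the one at chr19:43525497-44500524 ZNF226 (log2 0.27, SE 0.04) and ZNF227 (log2 0.24, SE 0.04) were higher, 2 were lower and 2 were not called. With library totals 9 of 10 and 7 of 8 genes of the last clusters were still called lower, beside 24.5% of all tested genes.

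**Figure D4:**
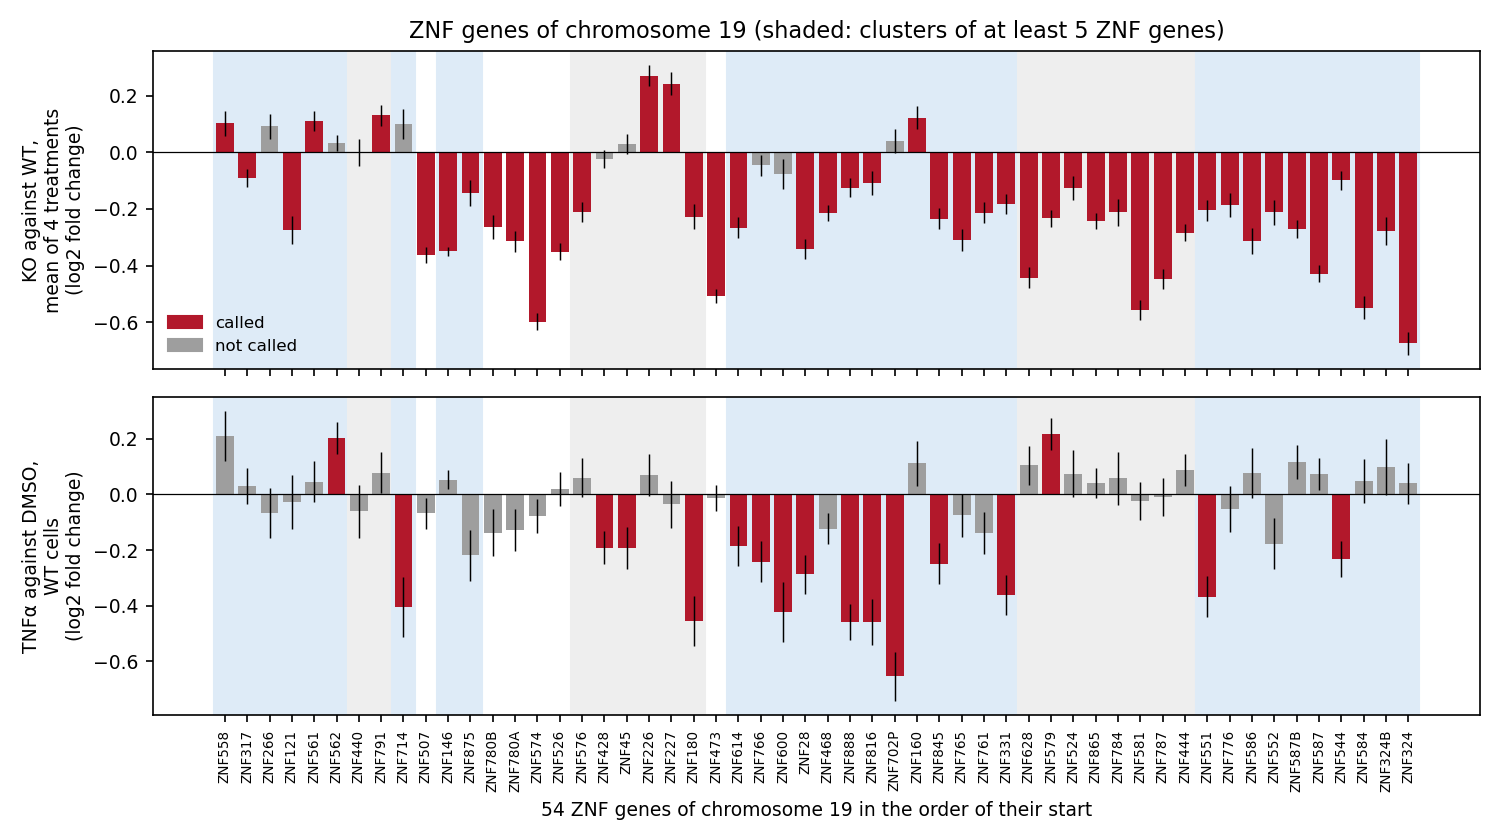
The 54 ZNF genes of chromosome 19 in the order of their start, with the log2 fold change of KO against WT as the mean of 4 treatments above and of TNFα against DMSO in WT cells below (bars, with SE). Shading marks clusters and red bars were called. All genes of the last 2 clusters, on the right, are lower in KO cells, while 9 of the 15 genes called lower with TNFα lie in the shaded run from ZNF614 to ZNF331.

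Of the clusters on chromosome 7, 2 differed in direction. ZNF680, ZNF107 and ZNF138, at chr7:64045443-65401135, were higher in KO cells, by log2 0.35 (SE 0.04), 0.35 (SE 0.04) and 0.32 (SE 0.04), while their neighbour ZNF92 was lower by a small amount (log2 -0.09, SE 0.03, adjusted p = 0.0129). ZNF107 was at 8.92 to 14.7 CPM (median 11.1) in WT and 11.0 to 17.2 CPM (median 14.8) in KO cells over the 4 treatments, and within each treatment all KO libraries lay above the WT ones. The call of ZNF680 with DMSO was lost without replicate 1 of the KO cells. In the other cluster (chr7:149069643-149867479) 5 of 7 genes were lower and 0 higher, with a median of -0.16, beside 34.7% and 36.3% of all tested genes. With library totals 3 of 7 were called lower there and 0 higher, beside 24.5% and 48.7% of all tested genes.

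The partners of KRAB proteins were listed as 29 tested genes of the co-repressor and of heterochromatin. In the mean of the 4 treatments 18 were lower and 4 higher in KO cells (34.7% and 36.3% of all tested genes), with a median log2 fold change of -0.11. With library totals 12 were lower and 9 higher (24.5% and 48.7%), with a median of -0.02. TRIM28, the co-repressor itself, was at 969 to 1070 CPM (median 1005) in the WT and 701 to 832 CPM (median 735) in the KO libraries. No KO library reached a WT library, and the level was lower in KO cells (log2 fold change -0.44, SE 0.02, adjusted p = 1.4e-28). CBX5, which encodes HP1α, had a log2 fold change of -0.43 (SE 0.03) and MPHOSPH8, a subunit of the HUSH silencing complex, one of -0.53 (SE 0.02). TRIM24 and ZMYM2 were also lower, at -0.38 (SE 0.03) and -0.39 (SE 0.02). ATF7IP, the partner of SETDB1, was higher at 0.21 (SE 0.03) and SETDB1 was lower at -0.08 (SE 0.03). TRIM28 lies on chromosome 19, and whether its change bears on that of the ZNF genes was not tested.

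TNFα was compared with its absence in 4 pairs of groups that share no library, in each genotype without and with 7FTA. ZNF488 had the largest decrease. All its libraries with TNFα lay under 10 CPM, so it was included through those without TNFα. Its rank and p-values are therefore a description. Its level fell from 10.5, 11.6 and 12.0 to 3.94, 4.45 and 5.46 CPM in WT cells and from 14.8, 17.5 and 17.7 to 8.64, 9.25 and 8.31 CPM in KO cells. With 7FTA in the medium it fell from 9.84, 11.1 and 11.1 to 3.44, 4.36 and 4.57 CPM in WT and from 17.1, 16.2 and 18.0 to 9.61, 9.67 and 9.07 CPM in KO cells. No library with TNFα reached one without it in the same genotype. The log2 fold changes were -1.30 (SE 0.12) and -1.36 (SE 0.12) in WT and -0.94 (SE 0.10) and -0.85 (SE 0.09) in KO cells, with adjusted p-values from 1.65e-13 to 6.4e-11. The smaller decrease in KO cells did not pass the test of the difference (adjusted p = 0.223 without and 0.0637 with 7FTA).

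In WT cells 21 ZNF genes were called higher and 33 lower with TNFα than with DMSO, where 19.5% of all tested genes were higher and 18.9% lower. With 7FTA in both groups, 14 were higher and 33 lower in WT cells (17.7% and 16.3%). In KO cells 17 were higher and 23 lower without 7FTA (16.1% and 14.8%), and 12 higher and 26 lower with it (16.2% and 15%). Under this scaling the share of ZNF genes called lower was near that of all tested genes, and the share called higher was below it in each comparison. With library totals the counts in WT cells were 9 higher and 50 lower without 7FTA (13.7% and 27% of all tested genes) and 7 and 52 with it (12.2% and 24.3%). In KO cells they were 9 and 42 without 7FTA (12.2% and 21.8%) and 6 and 41 with it (12.7% and 21.6%).

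In all 4 comparisons 13 ZNF genes were called lower and 3 higher, against 7.62% and 9.3% of all tested genes, 85 were called in none, and 0 in opposite directions. With library totals alone 21 were lower and 2 higher in all 4, against 11.5% and 6.99% of all tested genes. The 3 higher ones were ZNF641, ZNF3 and ZNF710. ZNF641, a KRAB gene at chr12:48337180-48351414 (minus strand, ENSG00000167528), was at 16.5, 17.8 and 15.8 CPM with DMSO and 23.1, 23.1 and 23.9 CPM with TNFα in WT cells, and at 13.4, 13.2 and 12.8 and 18.6, 17.0 and 19.5 CPM in KO cells. Both sets of TNFα libraries lay above those without it, by log2 0.49 (SE 0.07) in WT (adjusted p = 1.48e-07) and 0.49 (SE 0.08) in KO cells (adjusted p = 6.83e-07). ZNF3 and ZNF710 had mean log2 fold changes of 0.23 and 0.19 over the 4 comparisons.

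Apart from ZNF488, the genes lower in all 4 were ZNF702P, ZNF680, ZNF888, ZNF714, ZNF816, ZNF92, ZNF331, ZNF614, ZNF28, ZNF511, ZNF721 and ZNF703. ZNF702P, a transcribed pseudogene, was at 17.3, 16.3 and 17.3 CPM with DMSO and 12.0, 10.0 and 10.4 CPM with TNFα in WT cells, and at 15.7, 15.9 and 15.9 and 12.6, 10.6 and 12.0 CPM in KO cells. It was lower in every TNFα library, with log2 fold changes of -0.66 (SE 0.09) in WT and -0.43 (SE 0.09) in KO cells. ZNF331, an imprinted KRAB gene, had log2 fold changes of -0.36 (SE 0.07) in WT and -0.30 (SE 0.07) in KO cells. ZNF614 is the least certain of them in the comparison of TNFα with DMSO in WT cells: its call there was lost with DESeq2 and when any of 4 single libraries was left out (replicates 1 and 3 with DMSO, 2 and 3 with TNFα). In the comparisons with 7FTA in both groups, single libraries decided some calls as well. ZNF714 lost its call without WT replicate 3 with 7FTA, and in KO cells without replicate 3 with 7FTA or replicate 2 with both agents. ZNF3 lost its call in WT cells, and ZNF710 in KO cells, without replicate 3 with both agents.

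**Figure D5:**
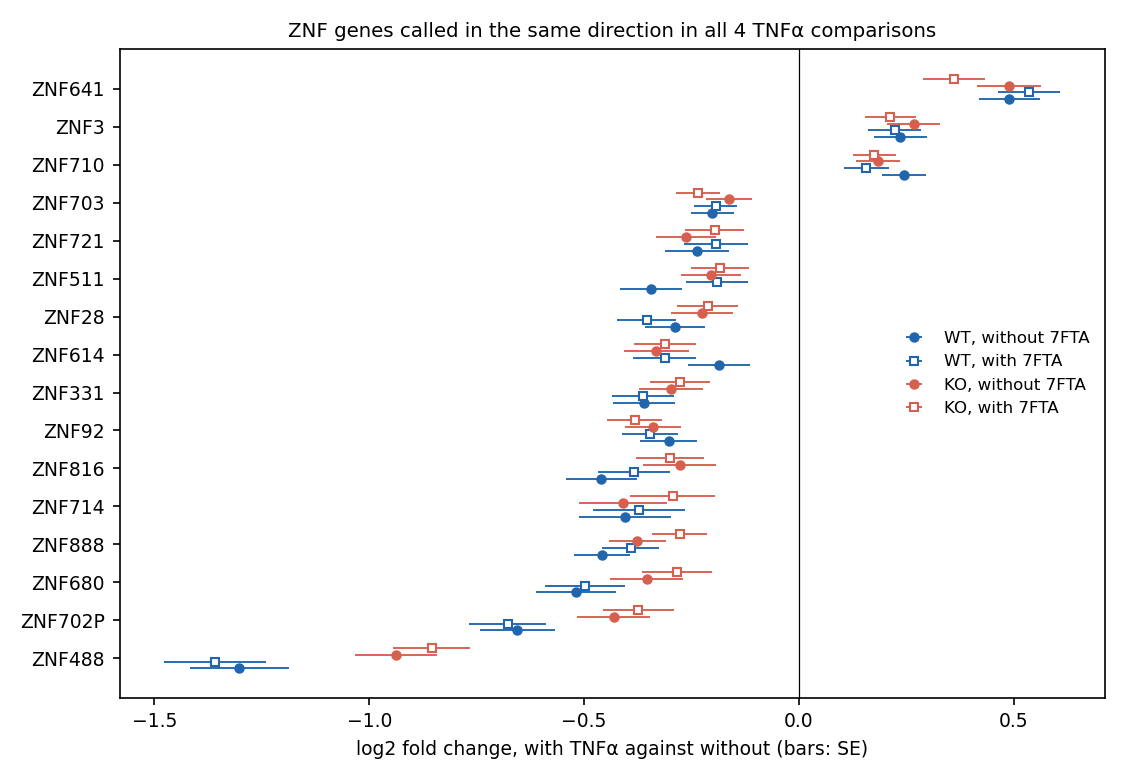
log2 fold change with TNFα against without it, with SE, of the 16 ZNF genes called in the same direction in all 4 comparisons. Blue is WT and red KO, filled symbols are without and open ones with 7FTA. ZNF488 has the largest decrease in each comparison, and ZNF641 the largest increase.

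In WT cells 21 of 79 KRAB genes were called lower and 9 higher, and of 84 genes without KRAB 10 were lower and 11 higher. Of all tested genes 18.9% were lower and 19.5% higher there. In KO cells the counts were 15 lower and 7 higher with KRAB, and 7 lower and 10 higher without, beside 14.8% and 16.1% of all tested genes. No test of the difference between the classes was run. For the genes without KRAB the direction depends on the scaling. Under library totals 18 of them were lower and 4 higher in WT, and 20 lower and 5 higher in KO cells. Genes with KRAB then had 30 lower and 5 higher in WT, and 20 lower and 4 higher in KO cells. Of all tested genes 27% were then lower and 13.7% higher in WT, and 21.8% and 12.2% in KO cells. In the cluster at chr19:51571298-53580269, which runs from ZNF614 to ZNF331 and holds ZNF816, ZNF888 and ZNF702P, 9 of 13 were lower and 0 higher in WT cells, with a median log2 fold change of -0.25. In KO cells 7 of 13 were lower and 0 higher, with a median of -0.17. Its 7 other tested genes had 1 higher and 1 lower in WT cells. In the last cluster of the chromosome, where all ZNF genes were lower in KO than in WT cells, 2 of 10 were lower with TNFα in WT cells.

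The 4 genes of the chromosome 7 cluster whose promoters are printed above were all called lower with TNFα in WT cells, with a median log2 fold change of -0.50. Of all tested genes 18.9% were called lower in WT and 14.8% in KO cells (27% and 21.8% with library totals). ZNF680 went from 17.3, 16.8 and 16.3 to 12.0, 11.5 and 11.7 CPM in WT cells and from 23.3, 19.3 and 19.4 to 17.1, 14.6 and 16.5 CPM in KO cells. The log2 fold changes in WT cells were -0.58 (SE 0.09) for ZNF107, -0.52 (SE 0.09) for ZNF680, -0.49 (SE 0.09) for ZNF138 and -0.30 (SE 0.07) for ZNF92. In KO cells 3 of them were called lower, and ZNF107 was not, at -0.19 (SE 0.08, adjusted p = 0.0687, and 0.071 for the difference between the genotypes). With library totals all 4 were called lower in both genotypes.

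Some genes were called with TNFα in part of the comparisons. ZNF37A, a KRAB gene, had the largest increase in WT cells without 7FTA (log2 0.55, SE 0.07). There it went from 19.3, 20.2 and 20.4 to 28.5, 29.1 and 29.8 CPM. In KO cells without 7FTA it went from 21.3, 21.8 and 21.8 to 26.8, 25.7 and 25.1 CPM (log2 0.26, SE 0.07). The difference between the genotypes had an adjusted p of 0.117. ZNF503 was higher with TNFα in WT cells, by log2 0.33 (SE 0.09) without and 0.39 (SE 0.09) with 7FTA, and in KO cells with 7FTA, by 0.63 (SE 0.12), whereas its relative ZNF703 was lower in all 4 comparisons. Other decreases in WT cells without 7FTA were those of ZNF180 (-0.46 on the log2 scale), ZNF600 (-0.42) and ZNF268 (-0.42), and other increases those of ZNF407 (0.33), ZNF720 (0.32) and ZNF267 (0.28). The calls of ZNF407 and ZNF720 were lost without replicate 2 with TNFα or 1 DMSO library (replicate 2 and replicate 3). Of the 29 co-repressor and heterochromatin genes, 10 were lower and 3 higher with TNFα in WT cells (18.9% and 19.5% of all tested genes). SUV39H1, a histone H3 lysine methyltransferase, was lower with TNFα in WT cells (log2 fold change -0.36, SE 0.06) and in KO cells (log2 fold change -0.42, SE 0.06).

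7FTA against DMSO asks what the tryptamine does alone. In WT cells 0 of the 166 genes were called higher and 0 lower (1.44% and 0.605% of all tested genes), and in KO cells also 0 and 0 (1.45% and 0.932%). DESeq2 called 0 in both genotypes as well, while 4 other settings each called 1 gene lower in WT cells (library totals, no filter on low counts, a replicate block, and a fit of these groups alone). At an unadjusted p under 0.05 the edgeR test counted 8 genes in WT and 4 in KO cells. The smallest p in WT cells was that of ZNF207, at 315, 305 and 310.0 CPM with DMSO and 291, 278 and 284 CPM with 7FTA. These libraries did not overlap, and the log2 fold change of -0.13 (SE 0.04) missed the threshold (adjusted p = 0.0584).

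Added to TNFα, 7FTA went with 0 higher and 3 lower ZNF genes in WT cells (2.99% and 2.55% of all tested genes) and with 1 higher and 2 lower in KO cells (3.99% and 3.53%). ZNF207 was lower in both. It was at 316, 296 and 311 CPM with TNFα and 268, 275 and 258 CPM with both in WT cells, and at 289.5, 271 and 266 and 239, 243 and 241 CPM in KO cells. The libraries did not overlap in either genotype, and the log2 fold changes were -0.20 (SE 0.04, adjusted p = 0.000193) and -0.19 (SE 0.04, adjusted p = 0.000246). The others lower were ZNF37A and ZNF473 in WT cells and ZNF644 in KO cells, with adjusted p-values of 0.0477, 0.0403 and 0.0323. The call of ZNF473 was lost without any 1 of the 6 libraries compared. That of ZNF37A was lost with DESeq2 and without any 1 of them except replicate 1 with both agents, and that of ZNF644 was lost in KO cells without replicate 2 or 3 with TNFα or replicate 1 with both agents.

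ZNF185, the higher one in KO cells, encodes a LIM domain protein of the actin cytoskeleton and has no C2H2 finger. In KO cells it was at 24.4, 27.3 and 23.7 CPM with DMSO, 26.2, 26.2 and 27.6 CPM with 7FTA, 17.6, 18.8 and 18.6 CPM with TNFα and 25, 25.5 and 23.6 CPM with both. Only the 3 libraries with TNFα alone were low. The increase with 7FTA over TNFα alone was log2 0.43 (SE 0.07, adjusted p = 5.04e-06). In WT cells its levels were 28.1, 26.2 and 26.3 CPM with TNFα and 26.9, 29.2 and 28.6 CPM with both, a log2 fold change of 0.08 (SE 0.06). The difference between the genotypes in this effect, a test added after the data were seen, was log2 0.36 (SE 0.09) with an adjusted p of 0.228, so the effects are not shown to differ.

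No ZNF gene was called in a test of whether an effect differed between the genotypes. For TNFα without 7FTA 0 were called in either direction (2.05% and 1.5% of all tested genes called higher and lower), and with 7FTA also 0 (1.58% and 0.982%). At an unadjusted p under 0.05 the edgeR test counted 17 and 16 genes, and DESeq2 called 0 in both. For 7FTA without TNFα 0 ZNF genes were called (0% and 0% of all tested genes), with 2 at an unadjusted p under 0.05, and for 7FTA with TNFα 0 (0.0142% and 0.0498%), with 8. The smallest adjusted p for TNFα was 0.066 without 7FTA, for ZNF473 (log2 difference -0.22, SE 0.07), and 0.0637 with 7FTA, for ZNF488 (log2 difference 0.50, SE 0.15). These counts do not show that the effects were alike in the genotypes.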

How the data were processed

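Poly(A)-selected RNA of 24 libraries, 8 groups of 3, was read as 100-base single ends. The authors deposited 1 table of raw gene counts; per the submitters' processing notes, the tools were STAR 2.6.1d, featureCounts 1.6.4 and DESeq2 1.20.0, with the genome build GRCh38. Whether counting used strand is not given in the sources used here, so reads of overlapping and antisense genes cannot be told apart. Levels are CPM on TMM-scaled library totals, and the limit of 10 CPM used plain totals.

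From these counts, genes that passed filterByExpr over the 8 groups (14059) entered a quasi-likelihood fit in edgeR 4.0.16 (R 4.3.3) over all 24 libraries, and p-values were adjusted by Benjamini-Hochberg over all of them. Calls are at an adjusted p under 0.05. Standard errors were taken from the F statistic (log2 fold change over its root). In all, 17 comparisons were fitted, 1 of them (7FTA by genotype with TNFα) added after the data were seen. The text names, without printing every one, up to 10 members per direction with the largest changes among those called whose libraries do not overlap (5 for interactions), up to 10 per direction called in all 4 comparisons of a kind, the 5 highest and 3 lowest levels per kb and the 3 genes on each side of the limit. Genes named for their cluster, a lost call or an uncalled value were chosen after their values were seen. The members, gene lists and comparisons were chosen with earlier results of these data known.

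KRAB domains were searched with a profile built from 233 KRAB windows (pyhmmer 0.12.3, E-value at most 0.001; 0 hits on reversed sequences) in translations of GENCODE 29 transcripts, which stand in for the RefSeq proteins first planned. Gene positions are those of GENCODE 29. Promoters are from RefSeq. Alternatives were RLE and upper-quartile factors, library totals alone, no filter, DESeq2 1.42.0, a fit of the groups compared alone, a replicate block, leaving out each library and cluster gaps of 250 and 1000 kb. The fit was tested on simulated counts. Replicate numbers were checked as pairs: in 1 of 28 pairs of groups (KO with 7FTA and KO with both agents) all same-numbered libraries deviated together with a correlation over 0.1.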

Additional observations from a re-analysis of the deposited data

How the results depend on the processing

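No called gene changed its sign under the alternatives run, while medians near 0 did. With library totals the median in KO against WT cells turned to 0.008 for the genes without KRAB and 0.05 for those off chromosome 19 in the mean, and to 0.03 for all 166 with both agents (-0.07 with TMM). That of all 166 with TNFα in WT cells went from 0.01 to -0.05 with library totals and -0.01 with upper-quartile factors. Library totals in place of TMM factors moved the counts most. KO against WT then gave 35 higher and 35 lower with DMSO, 35 and 36 with 7FTA, 41 higher with TNFα, 43 and 40 with both agents, and 62 higher in the mean. TNFα gave 9 higher and 50 lower in WT cells, 7 and 52 in WT cells with 7FTA, 9 and 42 in KO cells, and 6 and 41 in KO cells with 7FTA. 7FTA gave 1 lower in WT cells against DMSO and 2 higher in KO cells with TNFα, and the TNFα by genotype test with 7FTA gave 1 higher. Without the filter, 7FTA against DMSO in WT cells gave 1 lower, and 7FTA with TNFα gave 1 lower in WT and 1 in KO cells. Fitting only the groups compared gave 1 lower for 7FTA against DMSO in WT cells and 1 lower for 7FTA with TNFα in KO cells. The cause was not tested.

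Leaving out 1 library at a time gave, for KO against WT, 16 to 23 higher and 51 to 63 lower with DMSO, 13 to 17 and 51 to 57 with 7FTA, 14 to 17 and 53 to 64 with TNFα, 16 to 22 and 58 to 63 with both, and 31 to 37 and 85 to 89 in the mean. TNFα gave 15 to 23 higher and 25 to 33 lower in WT, 10 to 13 and 24 to 31 in WT with 7FTA, 11 to 15 and 19 to 25 in KO, and 6 to 15 and 18 to 26 in KO cells with 7FTA. The low counts of 11, 7 and 6 higher in KO cells came without replicate 2 with TNFα, replicate 2 with 7FTA and replicate 3 with both agents. 7FTA with TNFα gave 0 higher and 1 to 3 lower in WT cells (1 without replicate 2 or 3 of either group) and 1 to 2 higher and 1 to 3 lower in KO cells (2 higher without replicate 3 with TNFα or 2 with both, 1 lower without replicate 2 with TNFα or 1 with both). The TNFα by genotype tests gave 0 to 1 higher (1 without replicate 3 of WT cells with DMSO or of KO cells with TNFα) and 0 to 2 lower without 7FTA (2 without replicate 3 of KO cells with DMSO, 1 without their replicate 1 or replicate 3 of KO cells with TNFα), and 0 higher and 0 to 1 lower with it (1 without replicate 2 of KO cells with both agents). For 7FTA against DMSO, and for 7FTA by genotype, all such fits gave 0. Of 190 results for single genes, 165 kept their call under every alternative.

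With the replicate number as a block, 7FTA against DMSO in WT cells gave 1 lower, 7FTA with TNFα in KO cells 2 higher, and the TNFα by genotype tests 1 lower without and 1 higher with 7FTA. The other counts stayed within 1.5 times the values without the block, with 36 higher and 89 lower in KO cells in the mean and 13 higher and 29 lower for TNFα in KO cells with 7FTA, the comparison whose numbers deviate together. Over 28 pairs of groups the correlation of same-numbered libraries ran from -0.116 to 0.221. Cluster gaps of 250, 500 and 1000 kb each gave 10 clusters with a median of their ZNF genes under 0 in KO against WT cells. At 500 kb there were 21 clusters in all. The total changes with the gap, so the equal counts do not show that the same clusters were lower. Depth limits the genes near 10 CPM most, since they have the fewest counts behind each value.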

Other observations

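Of the 216 tested ZNF genes under 10 CPM, 31.5% were higher (68) and 32.4% lower (70) in KO than in WT cells in the mean of the 4 treatments, near the 36.3% and 34.7% of all tested genes, with a median log2 fold change of 0.03. With TNFα in WT cells 15.7% were lower (34) and 2.31% higher (5), against 18.9% and 19.5% of all tested genes, with a median of -0.14. With library totals the KO count was 91 higher and 51 lower. Zinc finger genes with other family names are few. Of 38 tested ZBTB genes, whose proteins join fingers to a BTB domain, 20 were lower and 9 higher in KO cells (15 and 11 with library totals), and with TNFα in WT cells 9 were higher and 1 lower. Of 6 ZKSCAN genes, which carry a SCAN and often a KRAB domain, 5 were higher and 0 lower in KO cells. Of 13 Krüppel-like factor genes 8 were higher and 1 lower with TNFα in WT cells, and in KO against WT cells 4 were higher and 5 lower. Beside these family counts, 36.3% of all tested genes were higher and 34.7% lower in KO cells. With TNFα in WT cells 19.5% were higher and 18.9% lower, and the share of ZBTB genes called higher was near this. Whether these families differ from the ZNF genes or from all tested genes was not tested.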
